A study of Mus musculus with 10 samples.

Results

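Lines M2 and M3 are mesenchymal mouse mammary tumour cell lines, and the comparison takes the arrays of M2 against those of M3, 4 of the 10 arrays in the series. The arrays were assigned by their line label, 2 for each line, and expression was compared across all 14840 genes tested. Both lines, like M1 and M4, came from tumours that relapsed in female FVB/N mice after injection of cells of E, an epithelial line from a mammary adenocarcinoma of a female FVB/N-TgN(MMTVneu)202Mul mouse. That strain carries a neu (Erbb2) transgene under the mouse mammary tumour virus promoter, so every line descends from cells with the transgene. Each M line was derived from a relapsed tumour, and the labels do not say whether it is clonal. Cells were harvested at 80% confluence from 10 cm dishes in RPMI with 10% serum, and no treatment differed between the lines. No label tells whether a line's arrays stand for separate cultures, so p-values measure only the spread between these arrays, which may be technical.

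Mesenchymal carcinoma cells have lost the junctions and keratins of the epithelium and make vimentin and extracellular matrix. Lines that share this state can still differ in how fast they divide, in how they obtain lipid and amino acids and in what they secrete. Cells in S phase and mitosis raise a common set of replication and spindle transcripts. Sterol genes are driven by the SREBP factors when cell sterol is low, and genes of amino acid synthesis and import are driven by ATF4 in the integrated stress response.

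Signals were quantile-normalized, and a signal given here is on that scale. The arrays of M2 correlated at 0.994 and those of M3 at 0.993 on the log2(signal + 32) scale, and an M2 array correlated with an M3 array at 0.96 to 0.962. All 8 listed mesenchymal markers lay between 546.9 and 14813.8 on the 4 arrays. Among them Vim was no dimmer in E (8821.8 and 8664.7) than in M3 (8083.1 and 7937.5), and so does not set M3 apart from E. Of a short list of 7 epithelial markers none exceeded 89.5, although Krt19 was as dim in E (4.9 and 6.6) and so shows no difference from it. Epcam, an epithelial adhesion molecule, lay between 2.3 and 4.8 on the 4 arrays against a mean of 9498 in E. Not all epithelial genes were low: in the longer lists 3 of 27 epithelial adhesion genes exceeded a signal of 100 on some array (Pkp3 highest, at 271.1), as did 2 of 10 keratins, with Krt8 near its signal in E. The short lists of defining markers for leukocytes, endothelium, adipocytes, skeletal muscle and glia stayed at or under 128. Probe sets were present for 5 of 6 leukocyte, 2 of 3 adipocyte and 1 of 3 glial markers. That glial marker, Sox10, gave 2912.7 and 2860.2 in E, so it is not particular to glia here. In the longer lists 6 of 15 leukocyte genes and 4 of 10 glial and neural genes exceeded 100 on some array, with the highest at 260.2 for Itgb2 and 271 for Erbb3, and 0 of 9 endothelial, 4 adipocyte and 7 skeletal muscle genes did. Pkp3, Itgb2 and Erbb3 were named after their values were seen. The Actb ratio of 3' to 5' signal was 1.22 and 1.25 on the M2 arrays and 1.29 and 1.38 on the M3 arrays. The Gapdh ratio was 0.83 and 0.81 in M2 and 0.79 and 0.77 in M3. Mean deposited signal was 413 and 339 in M2 and 327 and 323 in M3. On each of these RNA and scale measures the arrays of M2 and M3 did not overlap. The part of these measures in the results below was not tested.

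A gene was called when limma gave it an adjusted p under 0.05 and it differed at least 2-fold on the log2(signal + 32) scale. By this rule 896 genes, 6.04% of those tested, differed between M2 and M3, and 538 of them (3.63%) were higher in M2 and 358 (2.41%) lower. The median change of the called genes was 1.36 in size, 143 reached 4-fold and 32 reached 8-fold. The size limit decided each call, since all 896 genes at least 2-fold apart also passed the adjusted p, with 0.0229 the highest. Without the size limit 41.4% of genes passed. The arrays of the lines did not overlap for any of the 896 genes, but they also did not overlap for 9980 of all 14840 genes. The split by direction depended on scaling: 60% of calls were higher in M2 after quantile normalization, 83% on the deposited scale and 79.9% after scaling to 9 hybridization controls. The median change of all genes moved from -0.03 to 0.14 and 0.11 under those scalings. Of the 126 named genes called, 35 lost the call under some alternative processing, among them Dtx4, Ptgir, Tagln2, Cdh5, H2-M3, Osmr, Oas1a, Htra3, Krt14, Snai1, Cldn1, Cx3cl1, Gstt1 and Lfng under 3 or more.

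**Figure D1:**
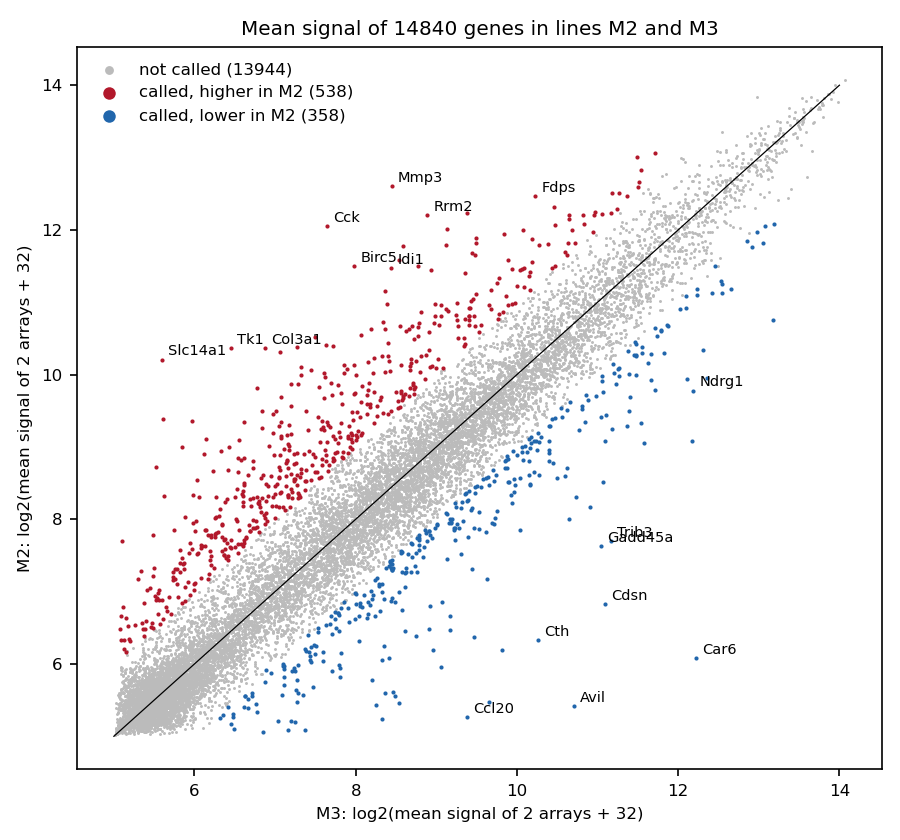
Mean signal of each gene in M3 (x axis) against M2 (y axis), as log2(mean of 2 arrays + 32), with the line of equality. Red points are the 538 genes called higher in M2, blue points the 358 called lower, and grey points the 13944 not called; Car6 lies farthest below the line.

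For comparison, the other pairs of mesenchymal lines had 656 calls (4.42% of genes) between M1 and M2, 617 (4.16%) between M2 and M4, 910 (6.13%) between M1 and M4, 1430 (9.64%) between M1 and M3 and 1567 (10.6%) between M3 and M4. By direction, 1.84% of genes were called higher and 2.58% lower in M1 than in M2, and 2.21% higher and 1.95% lower in M2 than in M4. M1 had 2.91% higher and 3.22% lower than M4, and 5.05% higher and 4.59% lower than M3. M3 had 5.15% higher and 5.4% lower than M4. These pairs share arrays, so the counts are set side by side without a test. The 3 pairs with M3 had 896, 1430 and 1567 calls. Of the 896 genes called between M2 and M3, M4 lay nearer to M2 than to M3 for 763 (85.2%), M1 for 673 (75.1%) and E for 627 (70.0%). Over all tested genes those shares were 60.4%, 60.4% and 57.8%. M3 lay outside the range of M1 and M4 for 792 of the 896 called genes and for 10650 of all 14840 tested. M2 lay outside that range for 547 of the called genes and for 9297 of all tested. Since the genes were chosen by their M2 and M3 values, these shares are a description.

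A total of 39 gene lists with 960 different symbols were counted, 818 of them tested and 172 called. In 4 lists most members were called in a single direction: transcripts of S phase, of mitosis and of sterol and fatty acid synthesis were higher in M2, and those of the amino acid response were lower in M2. In the other lists few members were called, or calls ran both ways. Over all tested genes 3.63% were called higher and 2.41% lower in M2, the shares to set beside each list count below.

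**Figure D2:**
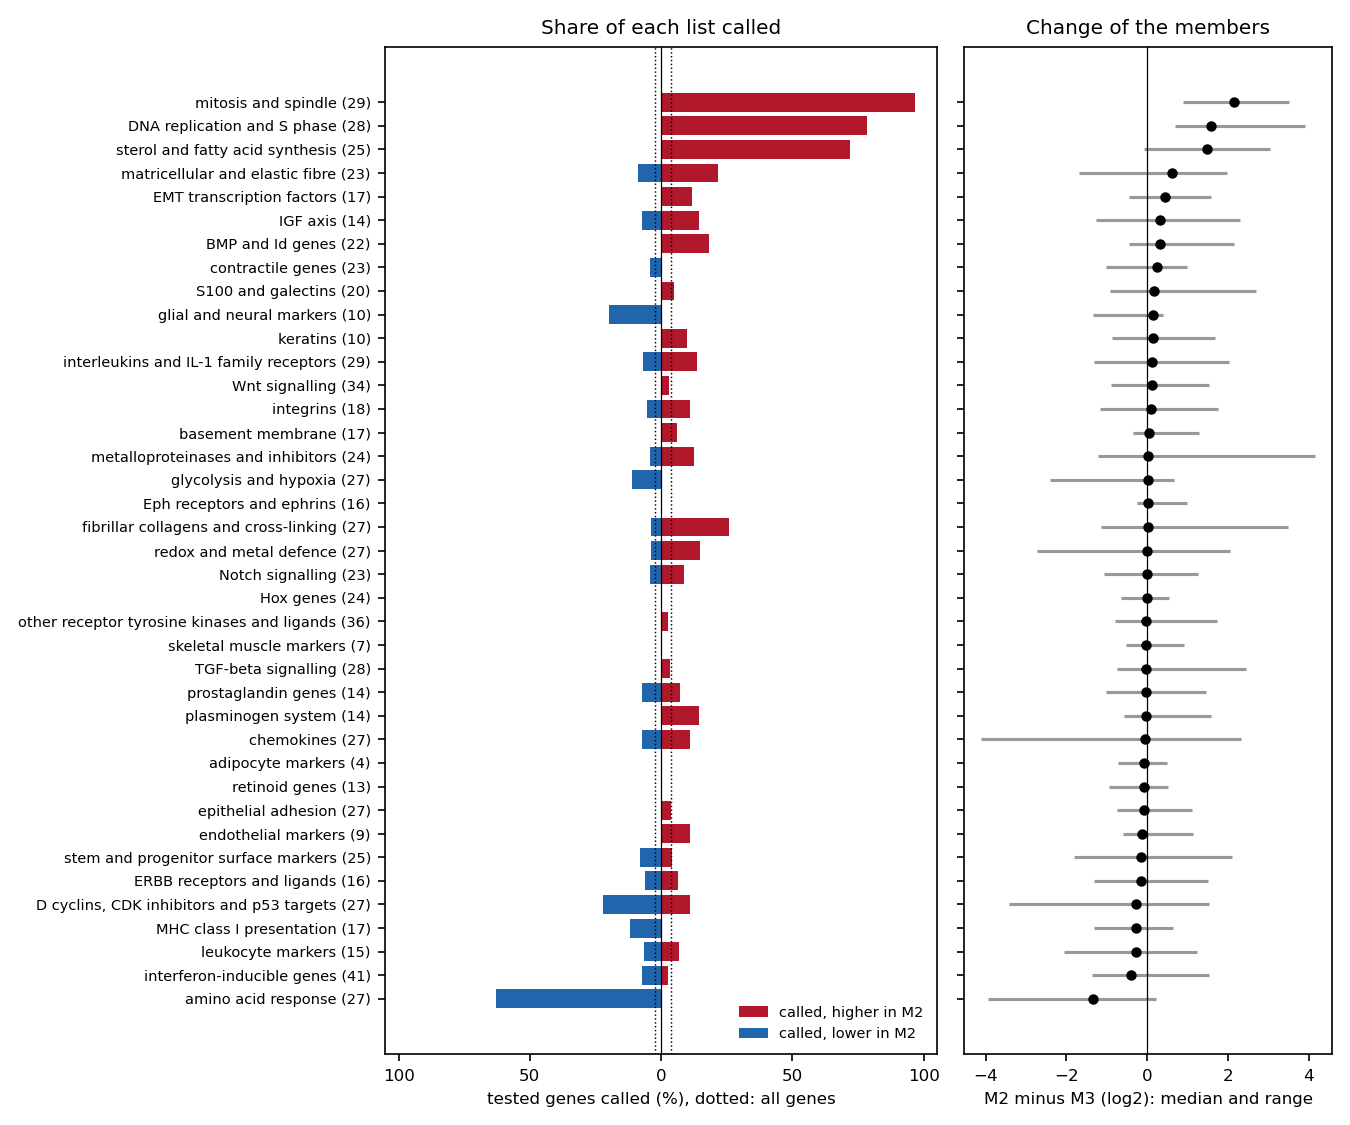
Share of the tested genes of each list called in each direction (left, percent, with the number tested in parentheses and dotted lines at 3.63% and 2.41% for all genes) and the median and range of the M2 minus M3 change on the log2 scale (right). Mitosis, S phase and sterol lists lie at the top with medians of 2.14, 1.57 and 1.47, and the amino acid response lies at the bottom with a median of -1.35.

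Genes of DNA replication and S phase were higher in M2, with 22 of 28 tested members called, 0 lower, and a median change of 1.57 against -0.03 for all genes. Tk1, the thymidine kinase of the salvage pathway, gave 1231 and 1344.3 in M2 and 60.1 and 51.4 in M3. It was 15.1-fold higher in M2 (log2 change 3.91 ± 0.067, SE; adjusted p = 7.54e-13). Ccne2, a cyclin of the G1/S transition, gave 615.2 and 627.4 in M2 against 35.4 and 26.4 in M3 (3.38 ± 0.093; adjusted p = 4.5e-11). Both M3 arrays were far below both M2 arrays for these genes. Rrm2, the ribonucleotide reductase subunit that limits deoxynucleotide supply, gave 4593.6 and 4748.4 in M2 and 443.9 and 438.8 in M3 (3.31 ± 0.040; adjusted p = 7.64e-14). Mcm5, a subunit of the replicative helicase, gave 4171.1 and 4003.5 in M2 and 530.5 and 525.7 in M3 (2.88 ± 0.042; adjusted p = 2e-13). Cdc6, which loads that helicase, gave 454.7 and 435.6 against 40.2 and 34.1 (2.79 ± 0.077; adjusted p = 4.81e-11). The helicase subunit Mcm6 changed by 2.78 ± 0.093. All 28 members had a lower mean in M3 than in E, M1, M2 or M4.

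The mitosis and spindle list had 28 of 29 tested members called higher in M2 and 0 lower, with a median of 2.14. Birc5 (survivin), a subunit of the chromosomal passenger complex, gave 2798.8 and 2912.1 in M2 and 217.7 and 222.5 in M3, 11.5-fold apart (3.52 ± 0.048; adjusted p = 1.13e-13). Top2a, the topoisomerase that untangles sister chromatids, gave 3609.6 and 3332.7 in M2 and 362.4 and 345 in M3 (3.18 ± 0.054; adjusted p = 7.54e-13). Mki67, a proliferation antigen, gave 1401.4 and 1198.6 against 123 and 121.3 (3.11 ± 0.070; adjusted p = 7.98e-12). M3 was the line that stood apart: all 29 members had their lowest mean in M3. Bub1 of the spindle checkpoint, the B-type cyclin Ccnb2 and the kinesin Kif20a changed by 2.77, 2.77 and 2.68. The sole member not called was the phosphatase gene Cdc25b at 0.89, named after its value was seen. Outside the lists, Cdca5 and Esco2, which hold sister chromatids together, were higher in M2 by 3.24 and 3.19. E2f8, a repressor of the E2F family, Pclaf, a partner of PCNA, and Spc25 of the kinetochore were higher by 3.15, 3.04 and 3.04. A dimmer probe set of Spc25 changed by -0.35 and one of Esco2 by 0.66, and neither was called.

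In the other pairs, M1 against M3 had 23 S phase and 29 mitosis members called higher in M1 (background 5.05%), and M3 against M4 had 25 and 28 called lower in M3 (background 5.4%). M1 against M2 and M2 against M4 had 0 called in either list. In cultures, fewer dividing cells and less RNA of these genes per dividing cell cannot be told apart.

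**Figure D3:**
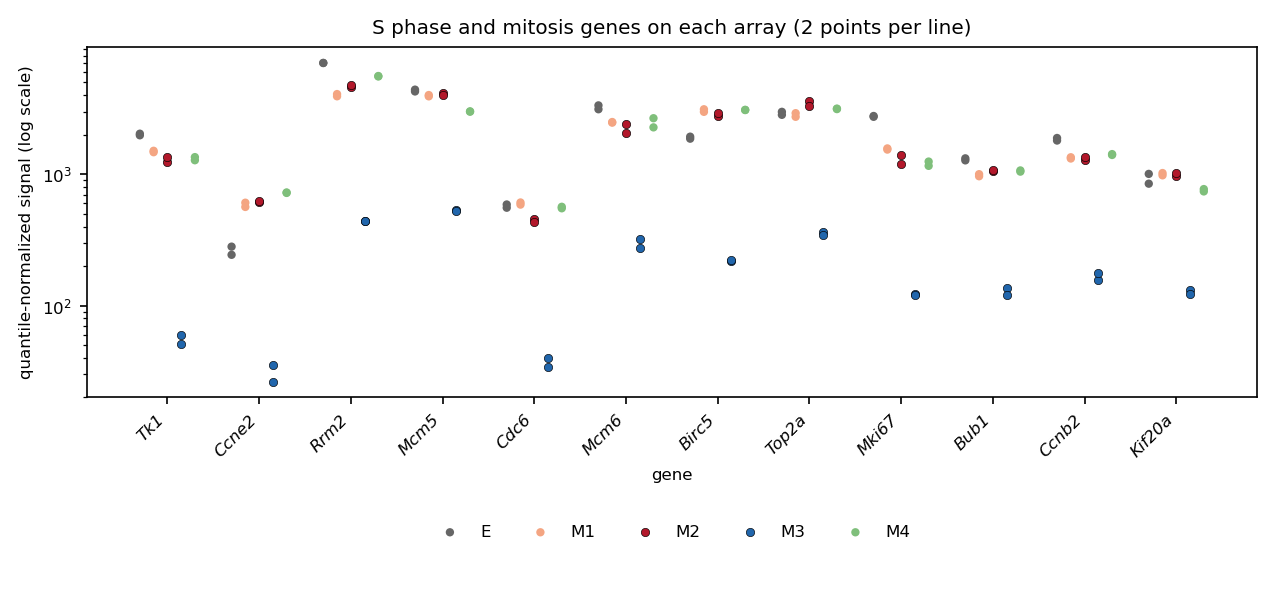
Signal of 6 S phase genes (left) and 6 mitosis genes (right) on each of the 10 arrays, on a log axis, with 2 points per line. For each gene shown both M3 points lie below all 8 points of the other lines; Tk1 is at 60.1 and 51.4 in M3.

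Regulators of the cycle moved both ways. Of 27 tested D cyclins, inhibitors of cyclin-dependent kinases and p53 targets, 3 were called higher and 6 lower in M2, with a median of -0.28. Gadd45a, a growth arrest gene induced by DNA damage and by amino acid stress, gave 172.1 and 160.7 in M2 and 2166.5 and 1991.5 in M3, 10.6-fold lower in M2 (-3.41 ± 0.094; adjusted p = 4.5e-11). Trp53inp1 (-1.75), the stress sensor Sesn2 (-1.58), the kinase gene Plk2 (-1.47) and Zmat3 (-1.44) were also lower in M2. The inhibitor gene Cdkn2d was higher in M2 by 1.53. The p53 target Cdkn1a, which arrests the cycle, was at -0.46 and not called, a gene named after its value was seen.

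Genes of sterol and fatty acid synthesis were higher in M2, with 18 of 25 tested members called, 0 lower and a median of 1.47. Idi1, an isomerase of the mevalonate pathway, gave 2863.8 and 2734.6 in M2 and 337.1 and 291.7 in M3, 8.19-fold apart (3.03 ± 0.062; adjusted p = 3.21e-12). Fdps, which makes farnesyl diphosphate, gave 5564.7 and 5715.7 against 1179.8 and 1152.2 (2.24 ± 0.038; adjusted p = 7.54e-13). Fdft1, the first enzyme committed to squalene, gave 2716.2 and 2642.8 against 637.2 and 608.9 (2.05 ± 0.047; adjusted p = 8.86e-12). The fatty acid elongase Elovl6, the sterol carrier Stard4 and the sterol dehydrogenase Nsdhl were higher by 2.07, 1.99 and 1.98. M3 had the lowest mean of the 5 lines for 21 of 25 members. M1 against M3 had 16 members called higher in M1 and M3 against M4 had 20 called lower in M3, with 1 call or fewer in M1 against M2 and in M2 against M4.

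The amino acid response ran the other way, with 17 of 27 tested members called lower in M2, 0 higher and a median of -1.35. Cth, which makes cysteine from cystathionine, gave 52.4 and 44.4 in M2 and 1205.2 and 1187.9 in M3, 15.3-fold lower in M2 (-3.94 ± 0.121; adjusted p = 1.06e-10). Trib3, a pseudokinase induced by ATF4 and CHOP, gave 170 and 181 in M2 against 2288.1 and 2238.4 in M3 (-3.47 ± 0.064; adjusted p = 1.15e-12). Psph, the last enzyme of serine synthesis, gave 983.9 and 916.5 against 4327.6 and 4408.2 (-2.16 ± 0.050; adjusted p = 9.31e-12). Both M3 arrays lay above both M2 arrays for each. Ddit3, which encodes CHOP, changed by -2.08, Chac1, which degrades glutathione, by -1.93 and Atf3 by -1.83. A dimmer probe set of Ddit3 changed by 0.45 and was not called. Aldh1l2, a mitochondrial folate enzyme outside the list, gave 536.4 and 487.7 in M2 and 4447.9 and 4703.5 in M3 (-3.08 ± 0.073; adjusted p = 1.06e-11).

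Here the lines split otherwise than for the cell cycle. M1 against M2 had 19 members called higher in M1 (background 1.84%) and M1 against M3 had 0, while M3 against M4 had 15 called higher in M3 (background 5.15%) and M2 against M4 had 1 called lower in M2. Trib3 had a mean of 1772 in M1, 2263 in M3, 175.5 in M2, 328.6 in M4 and 248.6 in E. For the members as a group, M1 and M3 were high and M2, M4 and E low.

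**Figure D4:**
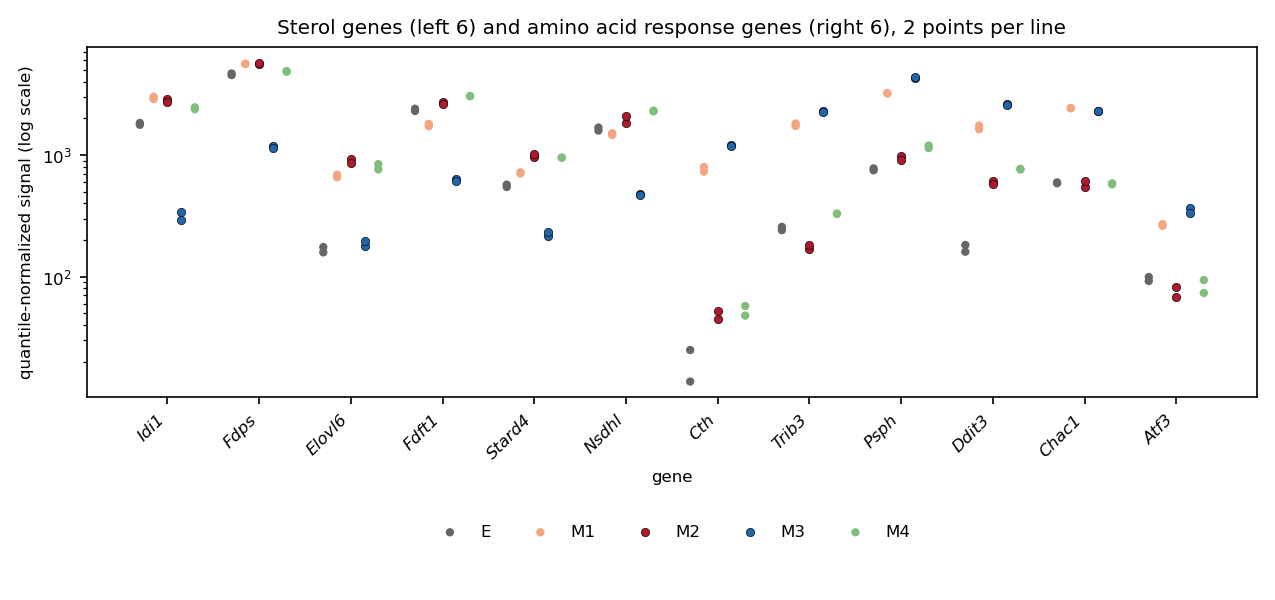
Signal of 6 sterol and fatty acid genes (left) and 6 amino acid response genes (right) on each of the 10 arrays, on a log axis, with 2 points per line. M3 is low for the sterol genes, with E as low for Elovl6, and both M3 and M1 are high for the amino acid genes; Cth is at 1205.2 and 1187.9 in M3 and at 52.4 and 44.4 in M2.

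Promoter sequence was read for called members of these 4 lists, from the 250 bases before the RefSeq start (GRCm38.p6), with both strands searched. The motifs and the genes shown were chosen after the list values were seen, and a match is a description of letters only. The mitosis motifs were CCAAT, bound by NF-Y, and the cell cycle homology element (CHR), TTTGAA. The NF-Y letters were in 21 of 24 windows of called mitosis genes (87.5%) and the CHR letters in 10 of 24 (41.7%), against 34.5% and 11.1% of the 15126 windows of all tested genes. The E2F-type letters GCGGGAA were in 6 of 22 windows of called S phase genes (27.3%) and 0 of 24 mitosis windows, against 6.11%. CCAAT was in 10 of 12 windows of called sterol genes (83.3%) and in 13 of 22 S phase windows (59.1%). The sterol element letters TCACNCCA were in 1 of 12 sterol windows (8.33%) against 3.4%. The letters TGATGNAA, of the element bound by ATF4 and CHOP dimers, were in 5 of 19 windows of called amino acid response genes (26.3%) against 2.25%.

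The windows printed are those of the called members with the largest change that hold the motifs asked of their list, so they were picked for a match. For the sterol list only CCAAT was asked, although a first look had sought TCACNCCA too. The Idi1 window printed holds no TCACNCCA. Windows were looked at first for the 3 members of each list with the largest change that had one, and 8 of those 12 held no match: those of Tk1, Rrm2, Mcm5, Birc5, Elovl6, Trib3, Psph and Ddit3. Capitals mark the matches on either strand. The first 3 windows belong to the mitosis genes Top2a (chr11:99024190-99024439, minus strand), Mki67 (chr7:135716380-135716629, minus strand) and Ccnb2 (chr9:70421555-70421804, minus strand), which hold 8, 5 and 4 matches.
Top2a: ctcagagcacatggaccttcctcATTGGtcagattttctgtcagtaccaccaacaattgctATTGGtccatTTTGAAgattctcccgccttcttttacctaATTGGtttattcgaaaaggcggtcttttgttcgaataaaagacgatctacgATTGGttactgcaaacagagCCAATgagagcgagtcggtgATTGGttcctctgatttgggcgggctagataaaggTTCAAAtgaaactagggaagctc
Mki67: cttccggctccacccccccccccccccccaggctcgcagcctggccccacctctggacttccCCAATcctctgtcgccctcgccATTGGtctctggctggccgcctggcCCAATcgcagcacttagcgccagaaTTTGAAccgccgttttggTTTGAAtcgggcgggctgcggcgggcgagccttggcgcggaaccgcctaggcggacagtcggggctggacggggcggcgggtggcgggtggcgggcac
Ccnb2: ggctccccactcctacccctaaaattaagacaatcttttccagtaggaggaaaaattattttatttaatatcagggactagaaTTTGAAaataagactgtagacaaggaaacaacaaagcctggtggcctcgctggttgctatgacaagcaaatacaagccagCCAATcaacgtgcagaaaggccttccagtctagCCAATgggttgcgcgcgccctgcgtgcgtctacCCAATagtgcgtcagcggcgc

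The next windows show GCGGGAA at the S phase genes Cdc6 (chr11:98907901-98908150, plus strand) and Uhrf1 (chr17:56303087-56303336, plus strand), and CCAAT at Idi1 of the sterol list (chr13:8885356-8885605, plus strand).
Cdc6: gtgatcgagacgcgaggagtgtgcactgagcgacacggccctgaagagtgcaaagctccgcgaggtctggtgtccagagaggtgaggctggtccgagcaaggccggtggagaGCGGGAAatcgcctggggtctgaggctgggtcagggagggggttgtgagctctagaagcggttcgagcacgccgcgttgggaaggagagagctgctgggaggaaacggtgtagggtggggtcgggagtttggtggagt
Uhrf1: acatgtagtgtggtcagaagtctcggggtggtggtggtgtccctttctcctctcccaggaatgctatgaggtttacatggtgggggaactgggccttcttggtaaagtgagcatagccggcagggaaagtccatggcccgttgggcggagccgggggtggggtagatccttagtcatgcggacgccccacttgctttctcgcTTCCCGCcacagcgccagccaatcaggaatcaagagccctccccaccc
Idi1: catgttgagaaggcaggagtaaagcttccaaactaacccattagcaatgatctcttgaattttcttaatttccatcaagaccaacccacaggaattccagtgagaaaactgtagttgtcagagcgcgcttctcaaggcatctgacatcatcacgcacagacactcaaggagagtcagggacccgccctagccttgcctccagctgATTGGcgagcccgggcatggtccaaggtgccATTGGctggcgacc

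TGATGNAA is shown in 3 genes that were lower in M2: Chac1 (chr2:119350992-119351241, plus strand), Atf3 (chr1:191183334-191183583, minus strand) and Vldlr, a lipoprotein receptor (chr19:27216770-27217019, plus strand).
Chac1: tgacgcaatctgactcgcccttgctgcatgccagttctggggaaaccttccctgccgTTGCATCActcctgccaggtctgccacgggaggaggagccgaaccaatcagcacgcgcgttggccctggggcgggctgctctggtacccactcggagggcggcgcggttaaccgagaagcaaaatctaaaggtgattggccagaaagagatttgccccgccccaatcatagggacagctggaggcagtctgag
Atf3: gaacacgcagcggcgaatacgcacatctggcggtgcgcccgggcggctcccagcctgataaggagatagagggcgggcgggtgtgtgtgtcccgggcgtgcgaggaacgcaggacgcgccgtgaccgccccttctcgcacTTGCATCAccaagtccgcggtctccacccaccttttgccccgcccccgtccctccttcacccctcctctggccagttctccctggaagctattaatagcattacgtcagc
Vldlr: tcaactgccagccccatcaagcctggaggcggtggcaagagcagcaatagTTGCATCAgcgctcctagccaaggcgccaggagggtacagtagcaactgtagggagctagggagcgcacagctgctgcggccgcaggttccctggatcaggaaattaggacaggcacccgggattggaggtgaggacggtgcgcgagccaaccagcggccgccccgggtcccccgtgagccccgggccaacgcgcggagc

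Called genes of the extracellular matrix were mostly higher in M2. Of 27 tested fibrillar collagen and cross-linking genes, 7 were called higher and 1 lower in M2, with a median of 0.01. Col3a1 gave 1314.4 and 1267.9 in M2 and 86 and 85.1 in M3 (3.49 ± 0.064; adjusted p = 1.13e-12), and Col1a1 661 and 677.4 against 88.9 and 99.2 (2.48 ± 0.080; adjusted p = 1.61e-10). Col6a3, Col6a1 and the lysyl oxidase relative Loxl3 were higher by 1.46, 1.44 and 1.25, and the prolyl hydroxylase P4ha2 was lower by -1.15. In M4, Col3a1 had a mean of 6866. Of 23 matricellular and elastic fibre genes, 5 were called higher (Thbs2 1.98, Sparcl1 1.83, Ccn2 1.60, Ccn1 1.37, Ccn5 1.19) and 2 lower, among them Fbln5 (-1.68), with a median of 0.62. Among 17 basement membrane genes Lamb3 was called (1.28), and among 18 integrins Itga8 (1.74) and Itgb2 (1.22) were higher and Itgb7 (-1.17) lower.

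Matrix proteases differed in single genes. Mmp3 (stromelysin 1) gave 6136.4 and 6257.5 in M2 and 327.6 and 305.9 in M3, 17.9-fold apart (4.16 ± 0.055; adjusted p = 1.13e-13). Its mean was 4812 in M4, 741 in M1 and 69.6 in E, so M2 and M4 were the high lines. Of 24 metalloproteinases and inhibitors, 3 were called higher (with Adam8 at 1.55 and the inhibitor Timp1 at 1.12) and Mmp11 lower (-1.21), with a median of 0.03. The plasminogen system list, 14 genes tested, also holds cathepsin and coagulation genes. In it Plat (1.26), the tissue plasminogen activator, and Tfpi (1.57), a coagulation inhibitor, were called higher, against 3.63% of all tested genes.

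Secreted signals and their receptors also ran both ways, beside 3.63% of all tested genes called higher and 2.41% lower. Ccl20, a chemokine for CCR6-bearing cells, gave 4.2 and 8.5 in M2 and 692.8 and 573.1 in M3 (-4.11 ± 0.129; adjusted p = 1.26e-10), with a mean of 790.5 in E. Of 27 chemokine genes, 3 were called higher in M2 (Ackr3 2.33, Cxcl12 1.44, Ccl8 1.28) and 2 lower, with Cx3cl1 at -1.14. Of 29 interleukin genes, 4 were higher (Clcf1 2.03, Il33 1.26, Il1rap 1.12, Il13ra2 1.07) and Csf2 (-1.31) and Osmr (-1.06) lower. Among 14 prostaglandin genes the receptors Ptger4 (1.45) and Ptgir (-1.02) were called. S100a8, a calcium-binding alarmin, was higher in M2 by 2.68 among 20 S100 and galectin genes.

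Of the Id genes, targets of BMP signalling that block basic helix-loop-helix factors, Id4, Id2 and Id1 were called higher in M2, and Id3 was at 0.88 and not called, a gene named after its value was seen. Id4 gave 1009.8 and 1000.8 in M2 and 204.7 and 195.3 in M3 (2.16 ± 0.072; adjusted p = 1.83e-10). Id2 and Id1 were higher by 2.16 and 2.00, and the inhibitory Smad gene Smad6 by 1.61, so 4 of 22 BMP and Id genes were called, with 0 lower and a median of 0.32. In the IGF axis Igfbp7 (2.29) and Htra3 (1.01) were higher and Igf2bp3 (-1.28) lower, of 14 genes. TGF-beta signalling had 1 call of 28 (Fstl1, 2.45), Wnt signalling 1 of 34 (Tcf7l2, 1.52) and the other receptor tyrosine kinases 1 of 36 (Pdgfrb, 1.72). Over all tested genes 3.63% were called higher and 2.41% lower. Notch signalling had 3 of 23 (Dlk2 1.26, Lfng 1.21, Dtx4 -1.07) and the ERBB list 2 of 16 (Ereg 1.51, Erbb3 -1.31). Eph receptors and ephrins (16 tested), Hox genes (24) and retinoid genes (13) had 0 calls at 2-fold in limma. At an unadjusted p under 0.05, 3 Eph genes were higher, 3 Hox genes higher and 5 lower, and 5 retinoid genes higher and 3 lower. Of all tested genes 22.4% were higher and 25.4% lower at that threshold.

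Differences in the stress and energy lists were narrow. In glycolysis and hypoxia 3 of 27 genes were called lower in M2 and 0 higher. Ndrg1, a hypoxia-induced gene, gave 879.1 and 812.3 in M2 and 4609.5 and 4667.7 in M3 (-2.41 ± 0.127; adjusted p = 1.14e-08), and the hexokinase Hk2 and the mitophagy gene Bnip3 changed by -1.40 and -1.38. The list's median was 0.01. Of 27 redox genes, 4 were higher in M2 (Gsta4 2.06, Nqo1 1.43, Sod3 1.25, Gstt1 1.01) and Txnip, the inhibitor of thioredoxin, was lower, at 257.5 and 255.7 in M2 and 1823.8 and 1943.2 in M3 (-2.73 ± 0.091; adjusted p = 1.9e-10).

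Immune genes were lower in M2 in few calls. Of 41 interferon-inducible genes, Usp18 (-1.36), Ifi204 (-1.35) and Oas1a (-1.08) were called lower and Ifitm1 (1.53) higher, with a median of -0.41. At an unadjusted p under 0.05, 24 of the 41 were lower and 7 higher, against 25.4% and 22.4% of all genes. In the MHC class I list Cd274, which encodes PD-L1, (-1.32) and H2-M3 (-1.04) were lower, of 17 tested, with a median of -0.28. At an unadjusted p under 0.05, 12 were lower and 2 higher, beside the same shares of all genes. The calls of Oas1a and H2-M3 were lost on the deposited scale, after median centring and under both hybridization control scalings.

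The 15 markers given whatever their result included 1 call, Snai1. Cdh1, the epithelial cadherin, gave 43.7 and 35.2 in M2 and 89.5 and 80.4 in M3 (-0.71 ± 0.148; adjusted p = 0.0017) against a mean of 3036 in E. Vim gave 14813.8 and 14536 in M2 and 8083.1 and 7937.5 in M3 (0.87 ± 0.030; adjusted p = 2.59e-10) and was not called. Its mean in E was 8743, above both M3 arrays. Its other probe sets changed by 0.84, not called, and by 1.16, which was called (adjusted p = 6.29e-09 over all probe sets). Krt8 gave 8310.8 and 7694.4 in M2 and 6244.1 and 6212.8 in M3 (0.36 ± 0.085; adjusted p = 0.00417). Krt8 thus had a signal near that of E (7215) in both lines, while Krt18, its filament partner, lay between 7.5 and 20.9 on the 4 arrays against 11710 in E. The changes were 0.65 for Snai2, 0.47 for Cd44, 0.39 for Cdh2, 0.31 for S100a4, 0.21 for Krt18, 0.21 for Erbb2, 0.18 for Twist1, 0.13 for Zeb1, -0.11 for Fn1, -0.44 for Zeb2 and 0.00 for Epcam, and none of these was called. Whether the Erbb2 probe set reads the neu transgene was not tested. Snai1 was called at 1.01 among 17 EMT (epithelial-mesenchymal transition) factors, of which Prrx2 (1.59) was the other call. Among 10 keratins Krt14 was called (1.68, from 79.2 and 77.4 against 3 and 2), and among 27 epithelial adhesion genes Cldn1 (1.12). The other Krt14 probe sets changed by 1.26, called, and by 0.14, not called. The Krt14 call was lost with probe sets ranked by mean log2 value. Of 23 contractile genes Tagln2 was called lower (-1.02), and its M2 arrays were 3670.7 and 2058.6. Another bright Tagln2 probe set (mean 3210 in M2, 4250 in M3) changed by -0.4 and a dim probe set by -0.02, and neither was called. Of 25 stem and progenitor surface genes Cd24a was higher (2.11) and Alcam (-1.81) and Abcb1a (-1.15) lower.

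Of the lists for other cell types, 2 of 15 leukocyte genes were called, Itgb2 (1.22) and Lcp1. Lcp1 was at 2 and 2 in M2 and 108.2 and 113.8 in M3. Called too were 1 of 9 endothelial genes (Cdh5, 1.13) and 2 of 10 glial and neural genes (Erbb3 and Gap43, -1.34). The Cdh5 call was lost under 6 alternatives, with 0.03 without M2 replicate 1 and -0.17 without M2 replicate 2. With an array left out probe sets were chosen again, so these values need not come from the probe set of the main fit. In the main fit the Cdh5 probe set gave 46.1 and 49.9 in M2 and 1.8 and 7.4 in M3, and the other Cdh5 probe set changed by -0.07. None of 4 adipocyte or 7 skeletal muscle genes was called by limma; at an unadjusted p under 0.05, 0 and 1 were higher and 1 and 1 lower. The defining leukocyte marker Ptprc reached 16.3 at most.

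Genes outside these lists held the largest changes. Car6, a secreted carbonic anhydrase, gave 43.1 and 27.8 in M2 and 4769.4 and 4716.3 in M3, 71.2-fold lower in M2 (-6.15 ± 0.100; adjusted p = 6.17e-13). Avil, an actin-binding relative of villin, gave 15.2 and 6.1 against 1661 and 1620.1 (-5.30 ± 0.207; adjusted p = 8.01e-10). Cdsn, the corneodesmosome protein of skin, gave 72.1 and 90.3 against 2117.2 and 2168.9 (-4.27 ± 0.113; adjusted p = 3.14e-11). These genes were at or near background in M2 and bright in M3, and the size of such a change depends on the added 32. Mamdc2 (-4.18), Stbd1 (-3.62), Csn3 (-3.10), Angptl6 (-3.10), Kcnma1 (-3.08), Taf7l (-3.08), Acox2 (-2.92) and P2rx3 (-2.84) followed. Csn3, the milk protein kappa-casein, had a mean of 14520 in E, and its other probe set, dim in both lines, changed by -0.01.

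On the M2 side, Slc14a1, a urea transporter, gave 1188.3 and 1112.4 in M2 and 17.5 and 15.3 in M3 (4.61 ± 0.140; adjusted p = 1.01e-10). Cck, the peptide hormone cholecystokinin, gave 4150.8 and 4281.1 against 186.2 and 149.9 (4.41 ± 0.174; adjusted p = 8.1e-10). Tafa5, a secreted chemokine-like protein, gave 653.8 and 626 against 25 and 8.3 (3.81 ± 0.176; adjusted p = 3.4e-09). M2 had the highest mean of the 5 lines for each of these, since no other line exceeded a mean of 205.2 for them.

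Called genes lay on every autosome and on X. Over genes with a mean signal of at least 200, a chromosome's median change stayed between -0.09 and 0.08 on all chromosomes but 3. On chromosome 3 the median was -0.28 over 380 such genes, and 69.7% of them were lower in M2, against 52.5% of the 7207 genes of all chromosomes. Each pair of an M2 and an M3 array gave a median between -0.28 and -0.25. In the order of their starts, the genes of chromosome 3 gave medians from -0.33 to -0.10 in 8 consecutive groups of 47 or 48. On the same genes the median of M1 minus M3 was -0.28 and that of M4 minus M3 was -0.37, while M2 minus M1 was at 0.01. Those contrasts share the M3 arrays. Over all 726 tested genes of chromosome 3 the median of M2 minus M3 was -0.17. Of these genes 6.2% were called lower in M2 and 2.62% higher, against 2.41% and 3.63% of all tested genes. No test was made of these medians and shares, and their cause was not tested.

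**Figure D5:**
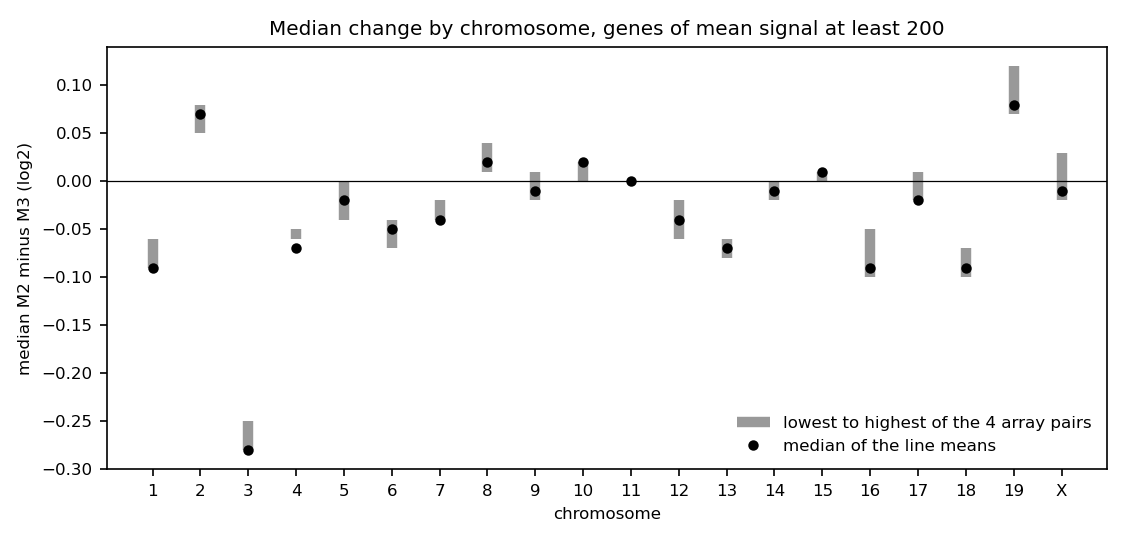
Median M2 minus M3 change (log2) of genes with a mean signal of at least 200 on each chromosome. Points are medians of the line means and grey bars run from the lowest to the highest median of the 4 array pairs; chromosome 3 lies at -0.28 and the others between -0.09 and 0.08.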

How the data were processed

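Signals were measured on 10 arrays, 2 for each of 5 cell lines, from biotin-labelled cRNA. The deposited values are probe set intensities on a linear scale (45101 probe sets, highest 18694.5, 9 values of 0), made by the authors with GCOS 1.3, per the submitters' processing notes; the signal algorithm and its scaling are not stated there. The number of arrays limits the precision.

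The 64 control probe sets were removed, values quantile-normalized, 32 added and log2 taken. Probe sets were kept (32978) where 2 or more arrays had them above the 40th percentile of that array, and a gene was its kept probe set of highest mean signal. Platform annotation gave 34945 probe sets 1 symbol, 932 several and 9160 none. The model was limma 3.58.1 in R 4.3.3, with 1 mean per line over all 10 arrays, lmFit and eBayes with trend (5 residual and 7 prior degrees of freedom, median residual SD 0.115), and Benjamini-Hochberg adjustment over 14840 genes. It was tested on simulated data. A call needed an adjusted p under 0.05 and a change of at least 2-fold. The model was fitted to log2 values; errors are standard errors. Figures were drawn in Python.

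The lines compared and the 39 gene lists were chosen with earlier results of these data known. Named genes were the 16 highest and 16 lowest calls of mean signal at least 200 in the higher line (no probe set of several symbols, no clone names), up to 6 called members of each list with the largest change, and 15 markers regardless of outcome (S100a4, Zeb1, Cdh1, Vim, Krt18, Erbb2, Snai2, Epcam, Fn1, Twist1, Cd44, Krt8, Zeb2, Cdh2, Snai1); other genes are said to be chosen after their values were seen. Of the 140 named genes, 68 had several kept probe sets; in 29 some were called and others not, and in 0 were calls opposite. Ranking of probe sets was changed from mean log2 value to mean signal after values were seen, when Epcam in E came from a dim probe set; this altered 125 genes. The hybridization controls of a scaling alternative were also replaced after values were seen. Both earlier choices are kept as alternatives. Of the tested genes, 11895 had a promoter window in the RefSeq table.

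Same-numbered arrays of M2 and M3 did not deviate together (r = 0.02), and the labels do not say that a number marks a shared day or culture. The pairs of arrays were not copies: 289 of 45037 values were identical for M2 and 329 for M3.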

Additional observations from a re-analysis of the deposited data

How the results depend on the processing

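The count of 896 calls stayed within 1.5 times of itself under all 19 alternatives, and none of the 896 turned to a call in the other direction under any of them. It was 1082 (898 higher in M2, 184 lower) on the deposited scale, 1013 (809 and 204) after scaling to the 9 hybridization controls, 916 (637 and 279) with the other 9 controls, and 898 (598 and 300) after median centring. It was 1148 with 16 added, 687 with 64 added, 958 with values below 64 set to 64, 708 with the mean of a gene's probe sets, 890 with a 60th percentile filter, 895 without trend and 889 with probe sets ranked by mean log2 value. It was 896 with no filter, with only the M2 and M3 arrays or only the mesenchymal lines in the fit. Leaving out 1 array of M2 or M3 gave 904 to 932, with the lone array assumed to vary like the others. The fit with a replicate block, in which the same replicate number is a pair, also gave 896 calls (538 and 358); it changed no call. The alternatives for the control set and probe set ranking were chosen after seeing the data.

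Of 126 named genes called, 91 were called under all 19 alternatives and 35 lost the call under some, most of them near 2-fold or near background (Dtx4 under 8, Ptgir and Tagln2 under 7, Cdh5, H2-M3 and Osmr under 6). Over the alternatives, 20 to 27 S phase, 25 to 29 mitosis and 16 to 21 sterol genes were called higher, and 15 to 18 amino acid genes lower. In lists of few calls counts moved more, as with contractile genes (0 to 3 higher) and MHC class I (0 to 3 lower). Signs turned for uncalled Epcam (0.01 on the deposited scale and with hybridization controls, -0.05 to 0.04 with 1 array left out, positive without M2 replicate 1 or M3 replicate 2), Fn1 (0.09, 0.04 with hybridization controls, 0.12 with the mean of probe sets) and Twist1 (-0.08 to 0.44 with 1 array left out, lowest without M3 replicate 2). They also turned for Cdh5 (-0.07 with probe sets ranked by mean log2 value, -0.17 to 1.25 with 1 array left out, lowest without M2 replicate 2). The Cdh5 probe set of the main fit gave 46.1 and 49.9 in M2 and 1.8 and 7.4 in M3. The other kept Cdh5 probe set changed by -0.07, the value under the ranking by mean log2. Probe sets were chosen again with 1 array left out, so the low Cdh5 values there need not come from the probe set of the main fit. The cause of the other sign changes was not tested. Signal near background limits the size of changes such as that of Avil.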
